A study of Mus musculus with 6 samples.

Results

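Smooth muscle and pericyte genes were examined as a set of 10, chosen by name from the 21776 genes of the table. They were the contractile genes *Myh11*, *Acta2*, *Tagln*, *Cnn1* and *Myl9*, and a second group of *Rgs5*, *Pdgfrb*, *Abcc9*, *Notch3* and *Cspg4*. The second group is called the receptor, channel and surface genes below, although *Rgs5* in it encodes a regulator of G protein signalling. All 10 were found, each as 1 gene, and all 10 were tested, since their means reached the minimum of 10. The data came from hearts of 3 *Trdn-as* KO mice and 3 WT mice, sequenced as 6 libraries of total RNA, with 1 library per heart. *Trdn-as* is a heart-restricted non-coding transcript that runs opposite to *Trdn*, which encodes triadin of the cardiomyocyte calcium release complex. The KO allele carries a polyadenylation site in the first exon of *Trdn-as*, was made in embryonic stem cells and was bred to homozygosity after backcrossing to C57BL/6. The allele is present in every cell of the mouse, so vessel cells carry it too. The age and sex of these mice are not given in the sources used here. Values are normalised read counts, which are reads per gene divided by a size factor of the library. The targeted transcript, listed as AC157017.2, had 1, 0 and 1 normalised reads in the KO hearts and 690, 773 and 688 in the WT hearts. *Trdn* had 2489, 2381 and 2551 in KO, against 1541, 1541 and 1516 in WT hearts. The values summed to 3.13 to 3.25 M per library, and the libraries were estimated to hold 2.59 to 3.62 M counted reads.

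The question for these genes was whether the vessel wall of the heart, seen through its transcripts, differed between the genotypes. Smooth muscle cells surround the coronary arteries and arterioles and set their width by contraction, and pericytes sit on the capillaries inside the same basement membrane as the endothelium. Together they are called mural cells. Smooth muscle cells contract when calcium activates myosin light chain kinase, and their contractile genes are driven by serum response factor with its partner myocardin, which bind the CArG box, a short sequence found near these genes. Endothelial cells recruit mural cells through PDGF-B, which acts on PDGFRB, and keep them mature through Notch ligands, which act on NOTCH3. In RNA of heart tissue, fewer cells of a type and less RNA per cell cannot be told apart.

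None of the 10 genes differed between KO and WT hearts at an adjusted p of 0.05 by limma's two-sided test, with Benjamini-Hochberg adjustment over all genes tested. Of the 13753 genes tested 4 passed, or 0.0291%. At an unadjusted p under 0.05 the count was again 0 of the 10 genes, against 5.74% of all genes tested, and limma-voom also gave 0 while limma without its mean-variance trend gave 1, *Cnn1*. Of the 10 genes 6 were lower and 4 higher in KO, where 49.4% of all genes were lower, and their median log2 fold change was -0.03, beside 0.00 over all genes tested. The fold changes ran from -0.17 for *Tagln* to 0.41 for *Cnn1*. The ranges of KO and WT hearts were apart for 2 of the 10 genes, against 9.07% of all genes. These were *Acta2*, lower in KO as were 4.44% of all genes without overlap, and *Myl9*, higher in KO as were 4.64%.

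The promoters of these 2 genes are shown because they were the ones whose groups were apart, in opposite directions, although both encode proteins of the same contractile machinery. Each runs 5′ to 3′ on the gene's strand, from 250 bases before to 50 after the start site (RefSeq, GRCm38.p6). *Acta2* lies on the minus strand at chr19:34255324-34255623 and *Myl9* on the plus strand at chr2:156775214-156775513. Capitals mark a CArG box, or a CArG-like box in which 1 of the 6 A or T letters at its centre is G or C.
Acta2: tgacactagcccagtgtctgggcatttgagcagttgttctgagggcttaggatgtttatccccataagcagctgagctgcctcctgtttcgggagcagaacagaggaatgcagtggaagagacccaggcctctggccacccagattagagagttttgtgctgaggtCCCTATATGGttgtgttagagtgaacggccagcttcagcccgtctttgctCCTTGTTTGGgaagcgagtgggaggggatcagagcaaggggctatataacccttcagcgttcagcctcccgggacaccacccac
Myl9: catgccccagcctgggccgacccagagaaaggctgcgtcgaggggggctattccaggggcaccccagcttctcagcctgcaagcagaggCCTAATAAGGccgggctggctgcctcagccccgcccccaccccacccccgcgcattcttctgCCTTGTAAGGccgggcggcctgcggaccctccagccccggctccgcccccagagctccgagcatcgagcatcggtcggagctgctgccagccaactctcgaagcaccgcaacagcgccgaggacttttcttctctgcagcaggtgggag
*Acta2* had 2 CArG-like boxes, CCCTATATGG from -84 to -75 and CCTTGTTTGG from -34 to -25 relative to the start site. *Myl9* had a CArG box, CCTAATAAGG from -161 to -152, and a CArG-like box, CCTTGTAAGG from -99 to -90. The CArG box occurred in 1.63% and the CArG-like box in 8.50% of 32851 mouse promoters of the same 300 bases, with both strands read. Of the 10 genes 7 had an entry among these promoters, and 1 of the 7 had a CArG box and 2 a CArG-like box. A match is a description of the letters and not a measured binding site, and no match says only that these letters are not in this window. The motif CATTCC of TEAD factors was found in 2 of the 7 promoters, *Acta2* and *Abcc9*, and in 14.7% of all promoters. TGGGAA, the motif of RBPJ, the DNA-binding partner of Notch, was found in the same 2 members and in 25.6% of all promoters. In *Acta2* the RBPJ motif overlaps the CArG-like box nearer the start, and in *Abcc9* the 2 motifs overlap each other.

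Positions of the 10 genes are given on GRCm38. *Acta2* (ENSMUSG00000035783, chr19:34241090-34255336, minus strand) encodes smooth muscle alpha actin, the actin of the smooth muscle thin filament. It had 247, 247 and 242 normalised reads in KO hearts, against 267, 261 and 279 in WT hearts, means of 245 ± 2.89 and 269 ± 9.17 (SD, n = 3). Every KO heart lay below every WT heart, by a narrow margin. On the log2 scale KO differed from WT by -0.13 (SE 0.08), a ratio of 0.913 with a 95% interval of 0.817 to 1.02, and the adjusted p was 0.879 (limma). The direction was the same under all 15 alternative settings, with fold changes from -0.15 to -0.10. The spread between hearts was 1.18% of the mean in KO and 3.41% in WT, and counting error alone, at the estimated 212 to 308 reads per library, gives about 6%, or 6.18% in KO and 6.30% in WT. No 75-base window of the longest *Acta2* transcript occurred exactly in a transcript of another gene, the near-identical cardiac actin *Actc1* included.

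*Myl9* (ENSMUSG00000067818, chr2:156775420-156781658, plus strand) encodes the regulatory light chain of smooth muscle myosin, the target of myosin light chain kinase. Its normalised reads were 76, 96 and 72 in KO hearts, against 67, 71 and 66 in WT hearts, means of 81.3 ± 12.9 and 68.0 ± 2.65 (SD, n = 3). The lowest KO heart was 1 read above the highest WT heart, and KO replicate 2 stood well above the rest. KO minus WT came to 0.24 (SE 0.14) in log2, with an interval of the ratio from 0.965 to 1.45 and an adjusted p of 0.879 (limma). Without KO replicate 2 the log2 fold change was 0.12.

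*Myh11* (ENSMUSG00000018830, chr16:14194527-14291408, minus strand) encodes smooth muscle myosin heavy chain, the motor protein that marks mature smooth muscle. It had 346, 405 and 362 normalised reads in KO hearts, against 387, 393 and 348 in WT hearts, and the groups overlapped almost fully. Fitted on the log2 scale, the difference was -0.02 (SE 0.08), and limma's adjusted p was 0.988. The interval of the ratio ran from 0.881 to 1.10. Its sign turned under 5 of the 15 alternatives.

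*Tagln* (ENSMUSG00000032085, chr9:45929619-45936058, minus strand) encodes transgelin, an actin-binding protein of smooth muscle. Its normalised reads were 37, 66 and 36 in KO hearts, against 50, 50 and 51 in WT hearts. In KO hearts 1 library lay above and 2 lay below all WT hearts, and the KO values differed 1.83-fold from lowest to highest. The spread was 36.8% of the mean in KO and 1.15% in WT, where counting error alone gives 14.6% in each. The WT hearts were thus closer together than counting error gives. The log2 fold change was -0.17 (SE 0.20), with an interval of the ratio from 0.659 to 1.19 and an adjusted p of 0.948 (limma). Without KO replicate 2 it was -0.45, with an unadjusted p of 0.0272 and an adjusted p of 0.970 (limma), while it was -0.04 without KO replicate 1 and -0.02 without KO replicate 3. Of the exonic bases of *Tagln*, 67.9% lie opposite exons of *Pcsk7* and Gm48529 on the other strand, against 6.03% for *Notch3*, 1.89% for *Abcc9* and 0 for the other 7 genes. The authors counted by strand. *Pcsk7* had 156, 172 and 171 normalised reads in KO, against 166, 147 and 161 in WT hearts, and the part of opposite-strand reads in *Tagln* was not tested.

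*Cnn1* (ENSMUSG00000001349, chr9:22099216-22109630, plus strand) encodes calponin 1, an actin-binding inhibitor of smooth muscle myosin. It was the scarcest of the 10 genes, with 15, 17 and 19 normalised reads in KO hearts, against 10, 13 and 15 in WT hearts. The groups met at 15. On the log2 scale KO differed from WT by 0.41 (SE 0.29), the largest of the 10 in size and also the least precise, with an interval of the ratio from 0.877 to 2.01 and an adjusted p of 0.903 (limma). At an estimated 8 to 19 reads per library, counting error alone gives a spread of 23.5% in KO and 29.5% in WT, above the observed 11.8% and 19.9%. Without WT replicate 1 the log2 fold change was 0.26.

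**Figure D1:**
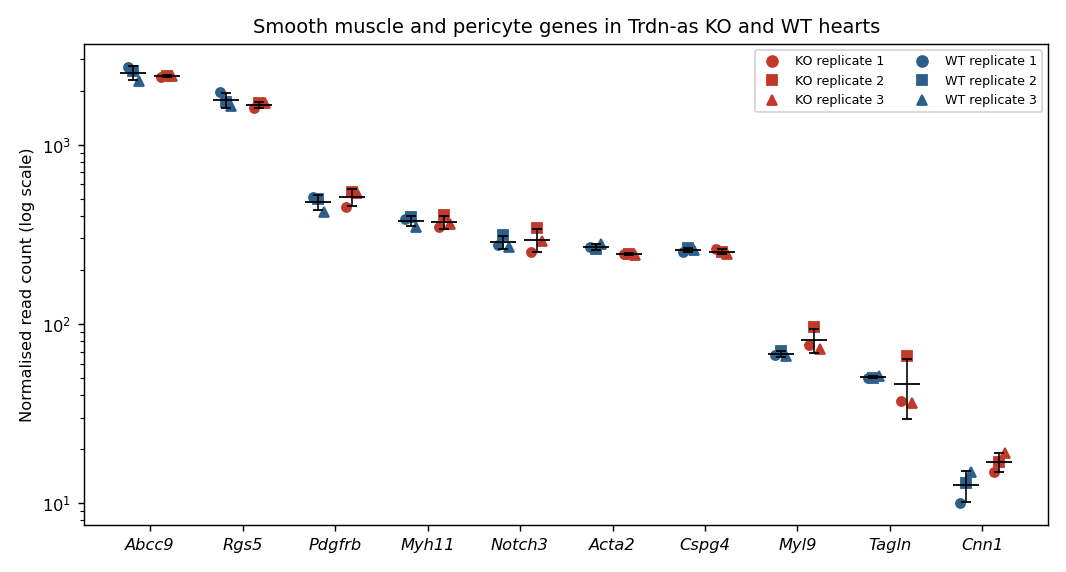
Normalised read counts (log scale) of the 10 genes in each of the 3 KO (red) and 3 WT (blue) hearts, with the mean and SD of each group as black bars. The groups lie apart only for *Acta2*, where 242 to 247 reads in KO face 261 to 279 in WT, and *Myl9*, where 72 to 96 face 66 to 71.

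*Rgs5* (ENSMUSG00000026678, chr1:169655501-169695813, plus strand) encodes a regulator of G protein signalling that dampens contraction signals and is a standard pericyte marker. It had 1602, 1706 and 1717 normalised reads in KO hearts, against 1960, 1726 and 1635 in WT hearts. WT replicate 1 stood well above the others, WT replicate 2 was just above the highest KO heart, and WT replicate 3 lay among the KO hearts. KO minus WT came to -0.08 (SE 0.06) in log2, with an interval of the ratio from 0.864 to 1.04 and an adjusted p of 0.913 (limma). Without WT replicate 3 it was -0.14, with an unadjusted p of 0.0346 and an adjusted p of 0.536 (limma), and without WT replicate 1 it was -0.0049.

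*Abcc9* (ENSMUSG00000030249, chr6:142587862-142702315, minus strand) encodes SUR2, the sulfonylurea receptor subunit of ATP-sensitive potassium channels. Splice forms of it serve both vascular cells and cardiomyocytes, and a count per gene cannot separate them. Of 7425 windows of 75 bases in its longest transcript 12 also occurred in transcripts of other genes. Its normalised reads were 2380, 2411 and 2434 in KO hearts, against 2725, 2577 and 2270 in WT hearts. The KO hearts were close together, with a spread of 1.13% of the mean, and lay inside the WT range, whose spread was 9.20%. Counting error alone gives 1.97% in KO and 2.05% in WT. Fitted on the log2 scale, the difference was -0.06 (SE 0.06), with an interval of the ratio from 0.876 to 1.05 and an adjusted p of 0.931 (limma). Without WT replicate 3 it was -0.14, with an unadjusted p of 0.0114 and an adjusted p of 0.436 (limma), and without WT replicate 1 it was -0.0062.

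*Pdgfrb* (ENSMUSG00000024620, chr18:61045150-61085061, plus strand) encodes the receptor through which PDGF-B attracts mural cells. It had 449, 542 and 540 normalised reads in KO hearts, against 509, 500 and 423 in WT hearts, with 1 low heart in each group. The log2 fold change was 0.10 (SE 0.08), with an interval of the ratio from 0.947 to 1.21 and an adjusted p of 0.921 (limma). Without KO replicate 1 it was 0.19, with an unadjusted p of 0.0347 and an adjusted p of 0.573 (limma). Leaving out WT replicate 3 gave 0.01, leaving out WT replicate 1 gave 0.14, and leaving out KO replicate 2 or 3 gave 0.05.

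*Notch3* (ENSMUSG00000038146, chr17:32120820-32166880, minus strand) encodes the Notch receptor of arterial smooth muscle and pericytes. Its normalised reads were 253, 341 and 291 in KO hearts, against 275, 312 and 269 in WT hearts, so that the highest and the lowest of the 6 values were both from KO hearts. On the log2 scale KO differed from WT by 0.04 (SE 0.10), with an interval of the ratio from 0.894 to 1.18 and an adjusted p of 0.980 (limma). Without KO replicate 2 the sign turned, to -0.07, and without WT replicate 3 the difference was -0.0005. Without KO replicate 1 it was 0.15.

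*Cspg4* (ENSMUSG00000032911, chr9:56865033-56899870, plus strand) encodes NG2, a surface proteoglycan of pericytes. It was the steadiest of the 10 genes, with 262, 253 and 245 normalised reads in KO hearts, against 252, 265 and 260 in WT hearts. Its highest value was 1.08 times its lowest. The spread was 3.36% of the mean in KO and 2.53% in WT, below the 6.08% and 6.42% that counting error alone gives. KO minus WT came to -0.03 (SE 0.08) in log2, with an interval of the ratio from 0.875 to 1.09 and an adjusted p of 0.980 (limma). With a library left out it ran from -0.06, without KO replicate 1, to -0.0083, without KO replicate 3.

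**Figure D2:**
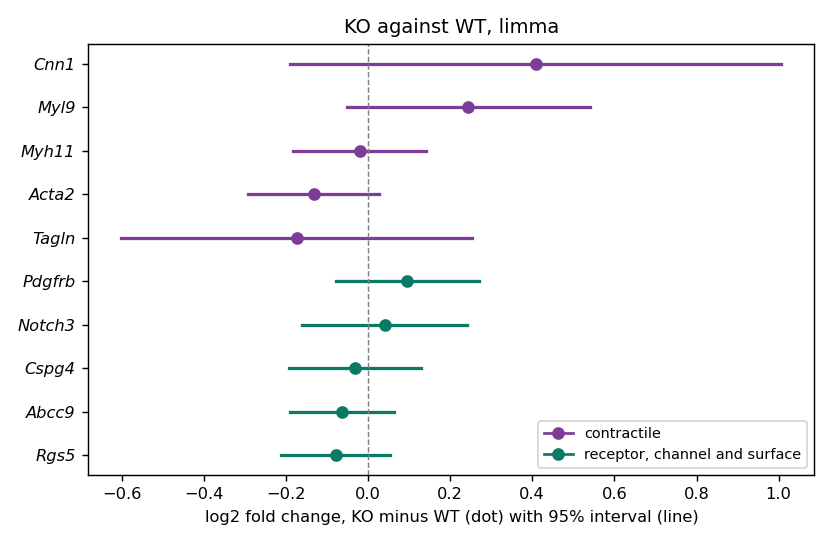
Fitted log2 fold change of KO over WT (dots) with its 95% interval (lines) for the contractile genes (purple) and the receptor, channel and surface genes (green). All 10 intervals include 0, from the widest, of *Cnn1*, to the narrowest, of *Abcc9*.

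Levels were compared between the genes per kilobase of exon, as the mean of the 6 hearts on the normalised scale. *Rgs5* was the highest with 379 ± 27.6 (SD, n = 6) and *Abcc9* followed with 295 ± 19.2. *Acta2* had 117 ± 6.52, *Pdgfrb* 90.2 ± 8.85 and *Myl9* 64.3 ± 9.52. *Myh11* had 49.2 ± 3.27, *Notch3* 35.9 ± 3.96, *Tagln* 24.3 ± 5.54, *Cspg4* 21.5 ± 0.626 and *Cnn1* 5.42 ± 1.14. *Rgs5* and *Abcc9* lay above 99.5% and 99.1% of all tested genes and *Cnn1* above 9.26%. Among neighbours in this order the ranges over hearts overlapped for *Pdgfrb* and *Myl9*, for *Notch3* and *Tagln*, and for *Tagln* and *Cspg4*, and were apart for the other 6 pairs. All 5 contractile genes were detected in every heart. Exon lengths are the union of all annotated exons, which understates the level of a gene whose heart transcript is short.

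The 5 contractile genes did not share the same order of hearts. Summed, they had 721, 831 and 731 normalised reads in KO hearts, against 781, 788 and 759 in WT hearts, means of 761 ± 60.8 and 776 ± 15.1 (SD, n = 3). KO replicate 2 was the highest heart and held the highest value of 3 of these 5 genes, *Myh11*, *Tagln* and *Myl9*. *Acta2* did not follow there, since its value in KO replicate 2 equalled that of KO replicate 1. The same heart had the highest summed level of 3 lists of neighbouring tissue, with 680 normalised reads of large vessel matrix genes against 444 to 584 in the other hearts, 66 of epicardial genes against 28 to 61, and 58 of fat genes against 12 to 24. It also had 628 reads of atrial genes against 436 to 622, 6181 of endothelial genes against 5445 to 6148 and 1043 of leukocyte genes against 802 to 1037. The part of these tissues in the contractile values was not tested.

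**Figure D3:**
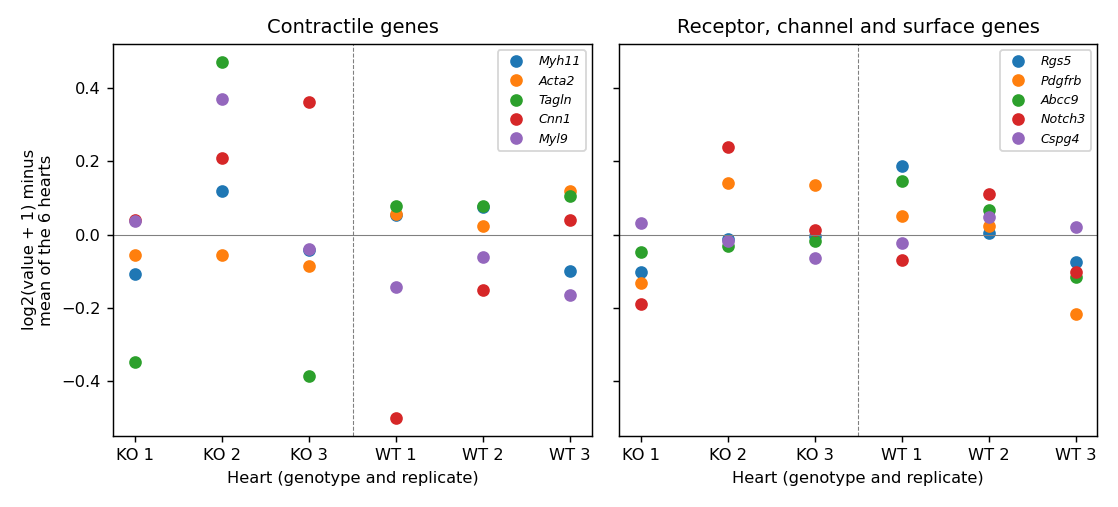
Each gene's log2(value + 1) minus its mean over the 6 hearts, for contractile genes (left) and receptor, channel and surface genes (right), with KO hearts left of the dashed line. In KO replicate 2 *Tagln*, *Myl9* and *Myh11* are at their highest while *Acta2* is not, and *Rgs5* and *Abcc9* are at their highest in WT replicate 1.

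The 5 receptor, channel and surface genes summed to 4946, 5253 and 5227 normalised reads in KO hearts, against 5721, 5380 and 4857 in WT hearts, means of 5142 ± 170 and 5319 ± 435 (SD, n = 3). *Rgs5* and *Abcc9* make up most of this sum and were both highest in WT replicate 1. That heart also had the highest sum of 8 cardiomyocyte markers, 26346 normalised reads, and the fewest estimated reads of the 6 libraries, 2.59 M. The cardiomyocyte sums were 20725, 21531 and 21999 in KO hearts, against 26346, 23802 and 21481 in WT hearts. Over the 6 hearts *Rgs5* ranked exactly as the cardiomyocyte sum did, also within each genotype, with a Spearman rho of 1.00 (exact permutation p 0.00278, adjusted 0.0556) and a Pearson r of 0.941 (exact permutation p 0.00139, the smallest that 6 hearts allow, adjusted 0.0278). Left without WT replicates 1 and 2, r was 0.874.

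For *Abcc9* the Pearson r with the cardiomyocyte sum was 0.922 and rho 0.943 (exact permutation p 0.00972 and 0.0167, adjusted 0.0972 and 0.111). The r was 0.233 without WT replicates 1 and 2, so it rests on those hearts. *Pdgfrb* and the sum of 8 endothelial markers had an r of 0.931 and a rho of 0.943 (exact permutation p 0.0153 and 0.0167, adjusted 0.102 and 0.111), and r was 0.887 without KO replicate 1 and WT replicate 3. The endothelial sums were 5445, 6181 and 6148 in KO hearts, against 6090, 5917 and 5589 in WT hearts. *Cnn1* and the cardiomyocyte sum ran in opposite directions, with an r of -0.825 and a rho of -0.464 (exact permutation p 0.0472 and 0.394, adjusted 0.236 and 0.635), and r turned to 0.805 without WT replicates 1 and 2. These are the 4 of 20 relations at an unadjusted p under 0.05, each of the 10 genes against both sums, two-sided and adjusted over the 20, and they were examined after the values had been seen. Of the 4, only the r of *Rgs5* passed 0.05 after adjustment. All points share the library's scaling.

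**Figure D4:**
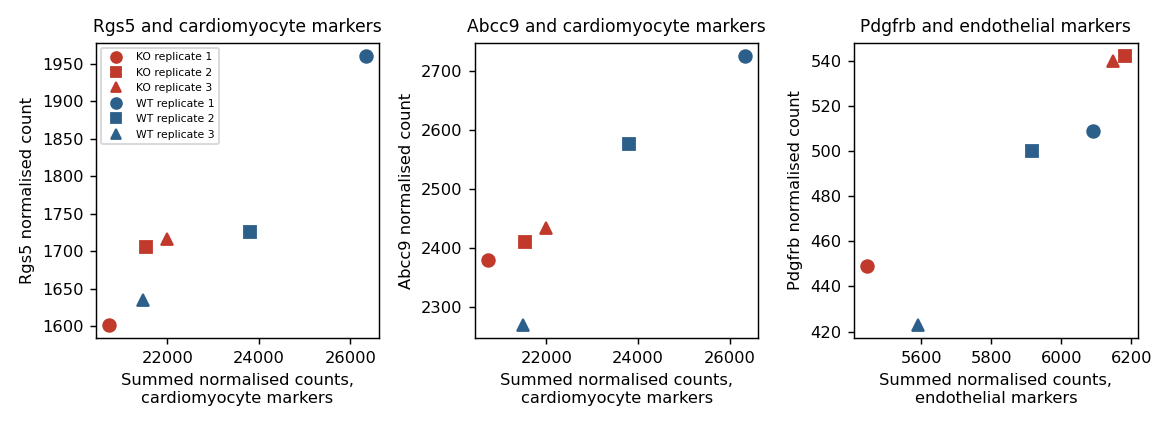
Normalised reads of *Rgs5* and *Abcc9* against the summed cardiomyocyte markers, and of *Pdgfrb* against the summed endothelial markers, 1 point per heart (KO red, WT blue, replicates by shape). *Rgs5* rises in step with the cardiomyocyte sum through all 6 hearts, from 1602 to 1960 reads.

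All 8 cardiomyocyte markers were lower in KO, with log2 fold changes between -0.16 and -0.14. Of these *Myh6*, *Tnnt2*, *Ryr2* and *Actn2*, 4 of the 8, had an unadjusted p under 0.05, against 5.74% of all genes. After adjustment 0 passed (limma). *Ryr2*, the calcium release channel and the most abundant marker, had 9276, 9785 and 9861 normalised reads in KO, against 11387, 10676 and 9991 in WT hearts. The median of the list was -0.06 without WT replicate 1 and -0.25 without WT replicate 3. With a library left out, the number at an unadjusted p under 0.05 ran from 0 of 8 to 8 of 8 (limma). It was 0 without KO replicate 1 or WT replicate 2, and 8 without WT replicate 3. Over all 13753 genes tested these settings gave 1136, 647 and 1183. A correction that removes differences shared by genes of similar read density gave a median of -0.05 for this list in place of -0.15. It left 0 of 8 at an unadjusted p under 0.05, as did leaving out the mean-variance trend (limma). Over all genes tested these settings gave 777 and 780. Under the same correction *Rgs5* was at 0.02 in place of -0.08 and *Abcc9* at 0.02 in place of -0.06. The part of the cardiomyocyte share in these 2 genes was not tested.

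Further smooth muscle genes were followed in a list of 18 beyond the 10, of which 17 were tested. Of the 17, 12 were lower and 5 higher in KO hearts, their median was -0.06 in log2, and 0 passed after adjustment (limma). Summed over the 18, the hearts had 9126 to 9298 normalised reads in KO and 9332 to 10099 in WT, without overlap. These sums follow the abundant genes of the list and were not tested. An unadjusted p under 0.05 was reached by 2 of the 17, against 5.74% of all genes (limma). Among them was *Des*, the gene of the intermediate filament desmin, which cardiomyocytes also use in quantity. *Des* had 1340, 1310 and 1371 normalised reads in KO, against 1630, 1452 and 1353 in WT hearts, a difference on the log2 scale of -0.14 (SE 0.06). The 17 ran from -0.15 (SE 0.09) for *Mcam*, a surface adhesion molecule of mural and endothelial cells, to 0.25 (SE 0.18) for *Aoc3*, an amine oxidase of the smooth muscle surface. The groups were apart for 1 of the 17, where 9.07% of all genes were apart and 4.44% apart and lower in KO. This was *Ppp1r12a*, the targeting subunit of myosin phosphatase. It had 979, 928 and 992 reads in KO, against 1036, 1017 and 1000 in WT hearts, or -0.08 (SE 0.06). With a library left out, the number lower ran from 9 of 17, without WT replicate 1, to 14 of 17, without WT replicate 3, and the median from -0.02, without WT replicate 2, to -0.10, without WT replicate 3. *Actg2*, the other smooth muscle actin, was below the filter with 3, 8 and 4 reads in KO, against 5, 4 and 5 in WT hearts.

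Of 10 tested transcription factors of smooth muscle genes 5 were higher and 5 lower in KO, with a median of -0.02. The median ran from -0.06 without WT replicate 3 to 0.00 without KO replicate 3. Their sums were 4927 to 5095 normalised reads in KO hearts and 5120 to 5393 in WT hearts, without overlap, and were not tested. These sums follow the abundant genes *Tead1*, *Mef2c* and *Myocd*, with means of 1653, 912 and 701 in KO and 1764, 945 and 810 in WT hearts. Gene by gene, the groups were apart for 1 of the 10, against 9.07% of all genes. An unadjusted p under 0.05 was reached by 1 of the 10, against 5.74% of all genes (limma). *Myocd*, which encodes myocardin and is expressed in cardiomyocytes as well as in smooth muscle, had 799, 655 and 648 normalised reads in KO hearts, against 880, 773 and 776 in WT hearts. KO replicate 1 lay among the WT hearts and the other KO hearts below them. Fitted on the log2 scale, the difference was -0.21 (SE 0.08), with an unadjusted p of 0.0125 and an adjusted p of 0.807 (limma). *Srf* was at -0.11 (SE 0.09). *Tead1*, the most abundant factor of the list, had 1583, 1677 and 1699 reads in KO, against 1704, 1838 and 1749 in WT hearts, with groups apart and an unadjusted p of 0.103 (limma).

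Of 14 other pericyte genes, all in the table, 13 were tested. Summed, the 14 had 1619 to 1941 normalised reads in KO hearts and 1629 to 1746 in WT hearts, which overlapped. All 13 had a log2 fold change above 0, from 0.01 to 0.58, with a median of 0.07, where 49.4% of all genes were below 0. Only 1 of the 13 had an unadjusted p under 0.05, against 5.74% of all genes, and 0 passed after adjustment (limma). That gene was *Cox4i2*, an isoform of a cytochrome c oxidase subunit, with 52, 38 and 44 normalised reads in KO hearts, against 30, 30 and 28 in WT hearts, a difference on the log2 scale of 0.58 (SE 0.19), and its adjusted p was 0.772 (limma). *Kcnj8*, the channel pore that pairs with SUR2 in vascular cells, had 152, 154 and 184 reads in KO, against 122, 155 and 143 in WT hearts, 0.22 (SE 0.11). *Kcnj11*, the pore used in ventricular cardiomyocytes and the most abundant of the 3 KATP genes beside *Abcc9*, had 331, 304 and 285 in KO, against 355, 319 and 312 in WT hearts, -0.10 (SE 0.08). *Ebf1*, the most abundant pericyte gene of the list, was at 0.01 (SE 0.08). These 13 were also above 0 under each scaling, filter, test and density setting. Leaving out a library gave 8 of 13 above 0 without WT replicate 3, 9 of 13 without KO replicate 2, at a median of 0.01, 10 without KO replicate 3 and 12 without WT replicate 1 or 2. Without KO replicate 1 all 13 were above 0 at a median of 0.21, and 5 had an unadjusted p under 0.05 (limma). In that setting 1136 of all 13753 genes tested had one, against 790 with all libraries.

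In the Notch pathway, 14 of 14 genes were tested, 9 higher and 5 lower in KO, with a median of 0.08, and 0 passed after adjustment (limma). Without KO replicate 2 they were 7 higher and 7 lower, with a median of 0.01. Among ligands, *Dll4*, which arterial endothelium presents to its neighbours, had 138, 172 and 179 normalised reads in KO hearts, against 130, 125 and 149 in WT hearts. The difference was 0.27 (SE 0.11) in log2, with an unadjusted p of 0.0275 and an adjusted p of 0.851 (limma). *Jag1*, a ligand that acts on NOTCH3 in the vessel wall, was at -0.06 (SE 0.09). Of the receptors, *Notch1* had the highest level of the list and was at -0.06 (SE 0.07), *Notch2* at -0.11 (SE 0.07) and *Notch4* at 0.03 (SE 0.09).

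Among the targets *Hes1* had 125, 138 and 156 reads in KO, against 113, 95 and 106 in WT hearts. All KO hearts lay above all WT hearts. The log2 fold change was 0.41 (SE 0.12), with an unadjusted p of 0.00203 and an adjusted p of 0.689 (limma). *Hey1*, with 44, 50 and 44 in KO, against 38, 25 and 43 in WT hearts, and *Heyl*, with 155, 164 and 201 in KO, against 147, 150 and 151 in WT hearts, were also apart, at 0.40 (SE 0.20) and 0.20 (SE 0.10). Groups were apart for 3 of the 14 genes, each higher in KO, against 9.07% of all genes, or 4.64% apart and higher. An unadjusted p under 0.05 was reached by 2 of the 14, *Dll4* and *Hes1*, against 5.74% of all genes (limma). *Heyl* is also counted among the other pericyte genes. *Hey2*, at -0.04 (SE 0.11), overlapped. *Hes1* also answers signals other than Notch, and the immediate early gene *Jun* was likewise higher, with 332, 356 and 315 reads in KO, against 284, 272 and 247 in WT hearts, or 0.32 (SE 0.08) in log2, where limma's adjusted p was 0.518. The part of such signals in the Notch targets was not tested.

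The PDGF, receptor and RGS genes gave no adjusted call. Of 6 PDGF genes 4 were higher and 2 lower, from -0.07 to 0.20, with none at an unadjusted p under 0.05. *Pdgfb*, the ligand of PDGFRB, had 109, 134 and 112 normalised reads in KO, against 126, 123 and 91 in WT hearts, and *Pdgfra*, the most abundant and a fibroblast gene, was at -0.07 (SE 0.06). Of 9 tested receptors and RGS proteins of vascular tone 7 were higher and 2 lower in KO. *Rgs4*, a close relative of *Rgs5*, had 171, 213 and 206 reads in KO, against 130, 164 and 173 in WT hearts, 0.34 (SE 0.11) with an unadjusted p of 0.00727 and an adjusted p of 0.772 (limma). *Ednrb*, an endothelin receptor, was at 0.27 (SE 0.11), with an unadjusted p of 0.0260 (limma), and *Ednra*, the endothelin receptor of smooth muscle, at -0.19 (SE 0.10). An unadjusted p under 0.05 was reached by 2 of these 9, against 5.74% of all genes (limma). *Rgs3*, the most abundant of this list, was at -0.02 (SE 0.09). Of 16 tested paralogs of the 10 genes 5 were higher and 11 lower, from -0.50 for the skeletal actin *Acta1* to 0.34 for *Rgs4*, with *Actc1* the most abundant. Of these 16, 2 had groups apart and 2 an unadjusted p under 0.05, against 9.07% and 5.74% of all genes (limma). *Acta1* had 386, 342 and 334 normalised reads in KO, against 541, 406 and 567 in WT hearts, with groups apart, an unadjusted p of 6.44e-05 and an adjusted p of 0.148 (limma). It passed after adjustment when a library was left out, at an adjusted p of 0.0176 without KO replicate 1 and 0.00425 without WT replicate 2 (limma). The lowest adjusted p among the paralogs ran up to 0.902, without WT replicate 1, over the 15 alternatives.

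**Figure D5:**
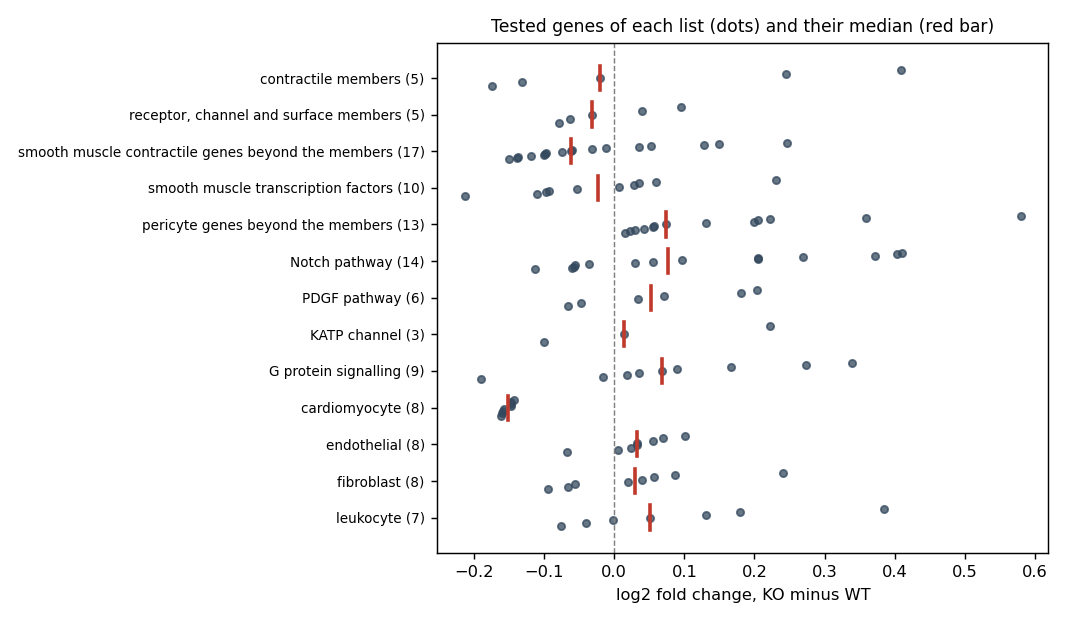
Log2 fold change of KO over WT for each tested gene (dots) of the 10 genes, of related lists and of markers of other cells, with the median of each list as a red bar and the number of genes in brackets. The cardiomyocyte markers lie together near -0.15 and the other pericyte genes all lie above 0, while the 10 genes lie on both sides of 0.

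Markers of the other cells of the heart were measured beside these. The most abundant were *Kdr* among endothelial, *Col3a1* among fibroblast and *Csf1r* among leukocyte genes. Of 8 endothelial genes 7 were higher and 1 lower in KO, of 8 fibroblast genes 5 and 3, and of 7 leukocyte genes 4 and 3, with medians of 0.03, 0.03 and 0.05 and sums that overlapped between the genotypes. With a library left out these medians ran from 0.01 to 0.12, from -0.03 to 0.09 and from -0.04 to 0.21, lowest without WT replicate 3 for endothelial and without KO replicate 2 for fibroblast and leukocyte genes, and highest without KO replicate 1. KO replicate 1 had the lowest sum of the 6 hearts in all of these lists, and also among the pericyte genes beyond the 10 and the cardiomyocyte markers. Of atrial genes 3 were higher and 2 lower, of 5 blood genes all 5 lower at a median of -0.22, of 6 large vessel genes 3 and 3, and of 6 tested immediate early genes 4 and 2. The blood genes were 3 higher and 2 lower at a median of 0.05 without WT replicate 1, at -0.03 without KO replicate 2, at -0.51 without KO replicate 1 and at -0.68 without WT replicate 2. Fat, epicardial and Schwann cell genes were scarce, with sums of 12 to 58, 28 to 66 and 75 to 107 normalised reads, and 1, 1 and 2 of their genes tested. No marker in the table was at 0 in all 6 hearts. Beside the cardiomyocyte markers and *Jun*, the genes of these marker lists at an unadjusted p under 0.05 were the complement gene *C1qb*, at 0.39 (SE 0.14), the matrix gene *Emilin1*, at 0.31 (SE 0.11), and *Fos*, at 1.18 (SE 0.33), each higher in KO with an adjusted p between 0.689 and 0.807 (limma).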

How the data were processed

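Total RNA of mouse hearts was made into strand-specific libraries and sequenced with 75-base single-end reads. The authors trimmed reads (Trimmomatic 0.39), aligned them to GRCm38 (STAR 2.6.1d), removed duplicates (Picard 2.21.1) and multi-mapping, ribosomal and mitochondrial reads, and counted exonic reads by strand (featureCounts 1.6.5). The score deposited by the authors for each gene is its count divided by the DESeq2 (1.18.1) size factor of the library and rounded. The size factors were recovered from gaps and repeats among the whole numbers (largest error on 8 simulated libraries 0.0164%), which gave 2.59 to 3.62 M reads per library. Intervals from reads cover counting error only.

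Values were compared as log2(value + 1) with limma 3.58.1 in R 4.3.3 (mean-variance trend, two-sided, Benjamini-Hochberg over 13753 genes with a mean of at least 10), since the table holds normalised values and not raw counts. Fold changes on this scale understate those of scarce genes. On simulated data of 5 sets, each with 200 changed genes of all levels, 58 to 72% of those given a 1.5-fold change were called. The adjustment is easier to pass with 200 changed genes than with the 4 calls of these data. These rates therefore do not carry over to the 10 genes. The highest share of false calls was 7.51%. The 3 libraries per genotype came from separate hearts. Replicate numbers did not pair them, with correlations of deviations of 0.05, -0.07 and -0.03. Exon lengths and overlaps came from GENCODE M21, which holds 99.8% of the gene identifiers. Correlations used exact permutation over the 6 hearts (SciPy 1.17.1).

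The members and lists were chosen with earlier results of these data known. Genes named were the 10 members, the targeted transcript and, in each further list, genes at an unadjusted p under 0.05 and the most abundant, and other list genes were named for their role, or as the extremes of a list, after their values were seen. One gene that this rule names is not reported here. Alternatives were 2 other scalings, limma-voom, no trend, 2 other filters, a pseudocount of 0.1, a replicate block, a loess correction for read density and leaving out each library.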

Additional observations from a re-analysis of the deposited data

How the results depend on the processing

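Members past an adjusted p of 0.05 numbered 0 under all 15 alternatives (limma), and the median log2 fold change of the 10 genes ran from -0.07 to 0.02, within the 0.0938 between replicates. The count at an unadjusted p under 0.05 was 1 without the mean-variance trend (*Cnn1*) and 0 to 2 when a library was left out. The genes were *Pdgfrb* without KO replicate 1, *Tagln* without KO replicate 2, and *Abcc9* and *Rgs5* without WT replicate 3. Over all 13753 genes this count was 790 as reported and 780 without the trend. It was 1136 without KO replicate 1, 638 without KO replicate 2 and 1183 without WT replicate 3 (limma). The sign turned for *Abcc9* (0.0179) and *Rgs5* (0.0163) under the read density correction, and for *Myh11* under total scaling (0.0029) and limma-voom (0.0028), which move the median of all genes from 0.00 to 0.02 and 0.03. With a library left out *Myh11* ran from -0.0850 to 0.0282 and *Notch3* from -0.0692 to 0.15, and the cause was not tested. With a replicate block the counts were again 0 and 0, with 6 genes lower and a median of -0.03. Over all genes, calls numbered 4 as reported, 32 without KO replicate 1, 7 without WT replicate 3, 2 without KO replicate 2, without WT replicate 1 or with at least 10 in every sample, and 1 without the trend. *Cnn1* had the fewest reads, an estimated 8 to 19 per library. A 1.5-fold increase lies inside the interval of *Cnn1* and a 1.5-fold decrease inside that of *Tagln*.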

Other observations

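Correlations between the 10 genes over the hearts were mixed in sign. Over the 45 pairs the median Pearson r across the 6 hearts was 0.151, from -0.733 to 0.889, and 27 pairs were positive. An exact permutation p under 0.05 was reached by 2 pairs and by 0 after adjustment over the 45, where the lowest adjusted p was 0.625. The pairs were *Rgs5* with *Abcc9* (r 0.889, exact permutation p 0.0139, rho 0.943, exact p 0.0167), with an r of 0.907 without KO replicate 1 and WT replicate 1, and *Myh11* with *Notch3* (r 0.847, exact permutation p 0.0403, rho 0.943, exact p 0.0167), with an r of 0.603 without KO replicates 1 and 2. The median r was 0.122 among the contractile genes, 0.148 among the receptor, channel and surface genes and 0.164 between them.

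Among 7056 other genes with a mean of at least 100, those whose values over the 6 hearts were most like the mean profile of the contractile genes were *Fam13c* (r 0.985), *Tbc1d1* (r 0.979) and *Lrp5* (r 0.977). *Fam13c* had 97, 140 and 98 normalised reads in KO and 94, 106 and 101 in WT hearts, with KO replicate 2 far above the rest. Without KO replicate 2 and WT replicate 1 these r were 0.758, 0.749 and 0.951. The genes most like the receptor, channel and surface genes were *Gprc5b* (r 0.989), *Mxra7* (r 0.985) and *Hint3* (r 0.971), with r of 0.965, 0.938 and 0.966 without KO replicate 1 and WT replicate 3. They were picked from all 7056 for a high r over only 6 hearts, and are given as a description.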
